A study of Mus musculus with 6 samples.

Results

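Pomc, the gene of pro-opiomelanocortin, was measured in every library of a single-cell RNA sequencing series on mouse embryonic stem cells (ESC) and their derivatives in culture. It is 1 of the 31053 genes in the deposited matrices (ENSMUSG00000020660), and it was chosen because earlier results of these data had shown a large difference between the genotypes at day 6. The genotypes are called Parental and Oct1_cKO by the labels, shortened here to parental and cKO (conditional knockout). Oct1, the product of Pou2f1, is a transcription factor with a POU domain. The 6 groups were undifferentiated parental and cKO ESC, and both genotypes at day 3 and at day 6 of a differentiation towards mesoderm, with 1 library per group. For differentiation, cells on 0.1% gelatin received Bmp4 in N2B27 medium for the first 2 days, and were then held for 4 days in DMEM-based medium with the Wnt enhancer Rspo3 and the BMP receptor inhibitor LDN-193189. The labels do not state how the knockout was induced, from which clone the lines came, or whether the parental cells carried the conditional allele.

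Barcodes were taken as cells when they held UMIs (unique molecular identifiers, each counting 1 captured transcript) of at least 1000 genes and no more than 10% of these were mitochondrial. This kept 7096 of 11046 barcodes. Library totals ran from 41665721 to 85102600 UMIs, and the median UMIs per kept cell were 51732 and 70990 in parental and cKO ESC, 82544 and 79002 at day 3, and 36219 and 30925 at day 6. Pou2f1 measured 30.1, 28.3 and 30.9 CPM (UMIs per 1000000 UMIs of the kept cells) in the parental libraries from ESC to day 6, and 21.5, 12.6 and 16.04 CPM in the cKO libraries. The labels do not say which part of the gene was deleted, so a tag near the start of a transcript does not measure the deletion. With 1 library per group nothing here has a replicate check. All intervals are 95% intervals, and they cover counting error only.

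Pro-opiomelanocortin is a hormone precursor. In corticotroph cells of the pituitary the prohormone convertase Pcsk1 cuts it to ACTH, which drives glucocorticoid output of the adrenal gland. In melanotroph cells and in neurons of the arcuate hypothalamus Pcsk2, together with carboxypeptidase E (Cpe) and the amidating enzyme Pam, yields alpha-MSH and beta-endorphin, ligands of melanocortin and opioid receptors. Tbx19 (Tpit) and Pitx1 are the transcription factors through which pituitary cells switch the gene on.

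Pomc lies on mouse chromosome 12, from 3954951 to 3960642 on the plus strand of mm10. The GENCODE annotation gives it 5 transcripts. In Pomc-201 there are 3 exons; the coding sequence starts in exon 2 (3958076 to 3958260) and ends in exon 3 (3959893 to 3960642). There are 0 annotated genes that overlap it. The nearest gene, Efr3b, which helps to anchor a lipid kinase at the plasma membrane, ends 1912 bases downstream on the other strand. The nearest protein-coding gene upstream is the DNA methyltransferase Dnmt3a, at 40508 bases. A library of 5′ tags reads transcripts from the promoter side, and the stretch before the start of Pomc is therefore shown, as RefSeq gives it for GRCm38.p6 (chr12:3954695-3954944, plus strand, 250 bases up to the base before the RefSeq start). Capitals mark a TATA box and a T-box core, the motif of the family of T, a gene on which the results below turn.

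Pomc promoter: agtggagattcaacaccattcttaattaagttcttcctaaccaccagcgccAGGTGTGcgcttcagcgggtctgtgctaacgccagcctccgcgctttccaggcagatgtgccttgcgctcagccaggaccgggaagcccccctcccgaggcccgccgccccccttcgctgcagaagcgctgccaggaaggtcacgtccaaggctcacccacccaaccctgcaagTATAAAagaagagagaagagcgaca

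Motifs were searched on both strands of the whole RefSeq window, which adds the 50 bases after the start. TATAAA was found at 1 place, −25 from the start, and 13.6% of the 32851 RefSeq promoter windows of the same length hold it. AGGTGTG was found at 1 place, −199, and 5.85% of windows hold it. The E-box CANNTG was found at 2 places, −200 and −147; the first overlaps the T-box core, and 72.3% of windows hold an E-box. The octamer ATGCAAAT, the motif of Oct1, was found at 0 places and stands in 1.73% of windows. TAATCC, the motif of Pitx1, was found at 0 places and stands in 7.06%. The other motifs searched were also at 0 places. They were the forkhead motif (3.65% of windows), the Gli motif (0.253%) and the interferon response motif (3.44%). The cyclic AMP response element (1.79%) and its core (7.51%) complete the search. These matches are letters in a window and describe neither binding nor its absence.

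Pomc was low and alike in the 4 libraries before day 6. It measured 4.25 CPM (3.80 to 4.73) in parental ESC, 4.50 CPM (3.85 to 5.21) in cKO ESC, 4.06 CPM (3.63 to 4.54) in parental cells at day 3 and 4.28 CPM (3.85 to 4.75) in cKO cells at day 3. The intervals overlap, and the log2 ratios of cKO over parental were 0.08 (−0.19 to 0.35) in ESC and 0.07 (−0.15 to 0.30) at day 3. The UMIs were spread thinly. Of 3900 kept cells in these 4 libraries, the highest held 6 Pomc UMIs, and 0 reached 10. The exact binomial intervals allow a share of such cells of up to 0.264% in parental and 0.694% in cKO ESC. At day 3 they allow up to 0.388% in parental and 0.359% in cKO cells.

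At day 6 Pomc measured 8.83 CPM (8.15 to 9.56) in the parental library and 76.4 CPM (74.4 to 78.5) in the cKO library. The log2 ratio of cKO over parental was 3.11 (2.99 to 3.24), which placed Pomc at number 2 from the top among 6173 genes that reached 20 CPM in the higher library. That difference is what the gene was chosen for, and it is given as a description. For scale, a rise of at least 2-fold in cKO was seen for 5.09% of those genes and a fall of that size for 4.11%. Against its own day 3 library, the log2 ratio at day 6 was 1.12 (0.92 to 1.32) in parental and 4.16 (4.01 to 4.32) in cKO. From day 3 to day 6 of the cKO cells, 20.3% of 6026 genes had a ratio of 2-fold or more upwards, and Pomc was number 67 from the top.

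**Figure D1:**
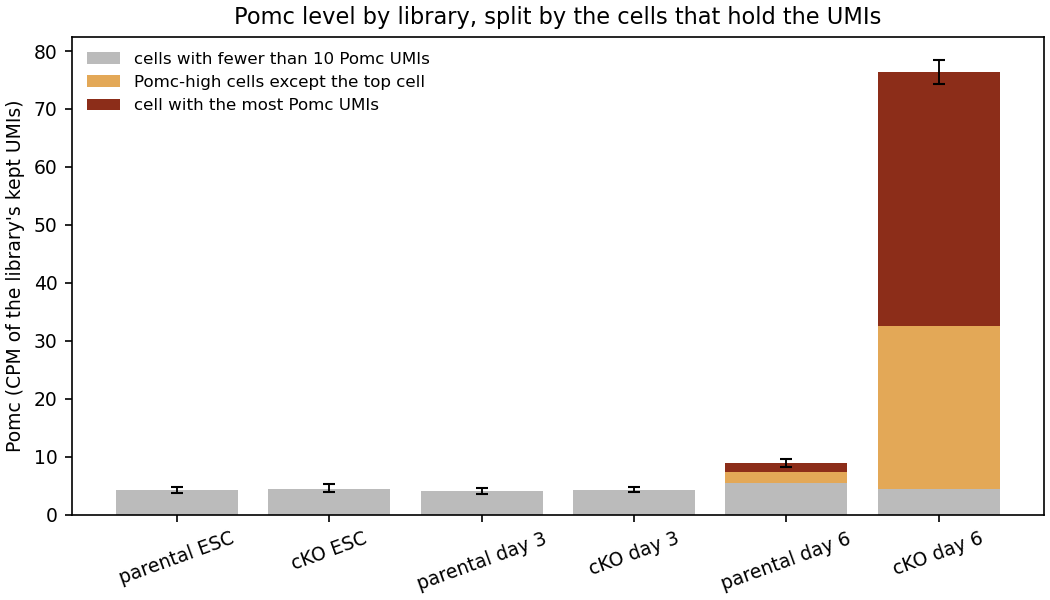
Pomc level (CPM of the kept cells' UMIs, y axis) in the 6 libraries (x axis), as bars from 0 split by which cells hold the UMIs, with exact Poisson 95% intervals of the whole bar. The grey part, cells with fewer than 10 Pomc UMIs, lies between 4.06 and 5.52 CPM in every library, and 1 cell makes up most of the cKO bar at day 6.

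The rise at day 6 sat in few cells. Of the 5220 Pomc UMIs in cKO cells, 3001 came from 1 cell, which is 57.5%. Pomc was the most abundant gene of that cell, at 5.49% of its 54668 UMIs. Cells with at least 10 Pomc UMIs are called Pomc-high here. There were 19 among 1650 cKO cells (1.15%; exact binomial interval 0.695 to 1.79), and they held 94.2% of the UMIs. Among 1546 parental cells there were 5 (0.323%; 0.105 to 0.753), and they held 37.7% of 612 UMIs. The difference in the share of cells was 0.828 percentage points (Newcombe interval 0.231 to 1.49). The parental Pomc-high cells held 104, 58, 32, 20 and 17 UMIs. In cKO the counts after the top cell were 470, 223, 162, 153, 141, 135, 114, 104, 80, 75, 72, 46, 44, 33, 18, 18, 16 and 13. The highest parental cell thus stood level with cell number 9 of the cKO list. Just below the limit were parental cells with 6, 4 and 4 UMIs and cKO cells with 8, 7, 6, 5 and 5.

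**Figure D2:**
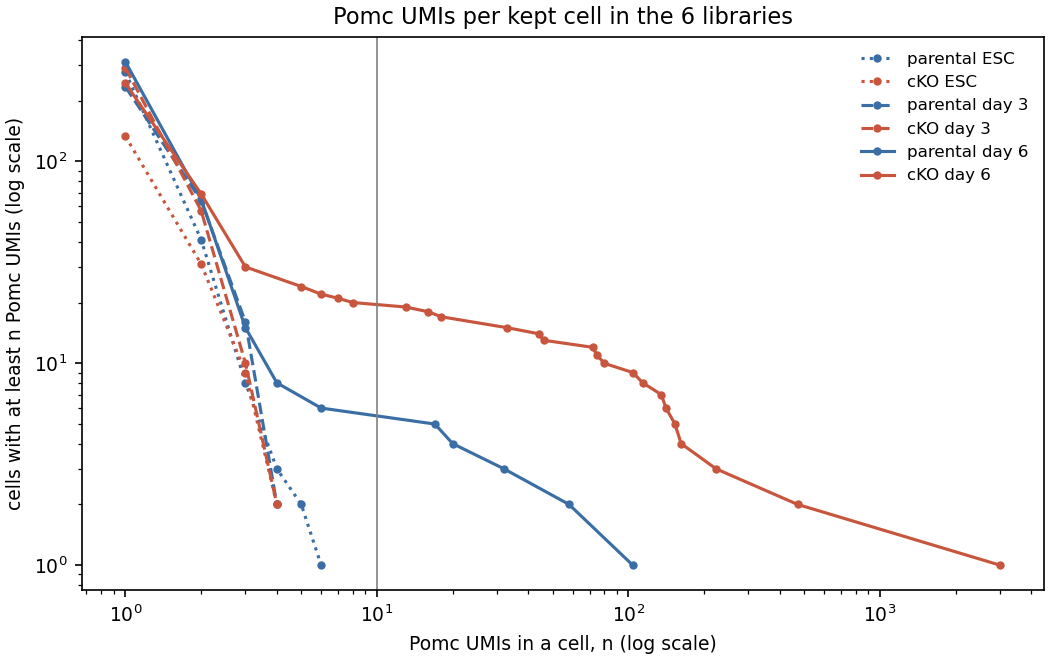
Number of kept cells (y axis, log scale) that hold at least n Pomc UMIs (x axis, log scale) in each of the 6 libraries; blue is parental, red is cKO, dotted is ESC, dashed is day 3 and solid is day 6. The grey line marks 10 UMIs: the 4 earlier libraries end at 6 UMIs or fewer, while the day 6 lines run on to 104 and 3001.

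The 1 cell with 3001 UMIs sets the size of the genotype ratio. Without it the cKO library measured 32.5 CPM and the log2 ratio was 1.88 (1.75 to 2.01). Without the top cell of each library the ratio was 2.15 (2.01 to 2.29). Among the 5589 genes with at least 20 CPM in the cKO day 6 library, Pomc ranked 2 by the share of its UMIs that came from a single cell, where the median gene had 0.684%. The first was the cardiac actin gene Actc1, at 57.9%. Pomc reached 20 CPM there only through its Pomc-high cells, so the rank describes the concentration and does not support it. In the parental day 6 library, Pomc ranked 25 among 10145 genes with at least 4 CPM. Its top cell there held 17.0%, where the median gene had 0.856%. Outside Pomc-high cells the direction turned, with a parental level of 5.52 CPM (4.98 to 6.10) and a cKO level of 4.49 CPM (4.00 to 5.02), a log2 ratio of −0.30 (−0.52 to −0.08). With the limit at 20 UMIs instead of 10, that ratio was −0.08 and its interval held 0 (−0.29 to 0.13).

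A single Pomc UMI carried little information. At least 1 UMI was found in 19.8% of parental and 25.1% of cKO ESC, in 24.7% and 28.4% of cells at day 3, and in 20.1% and 14.8% at day 6. With each cell thinned to 10000 UMIs the shares were 4.22% and 3.96%, 4.25% and 4.94%, and 7.32% and 6.23%; this left out 371 parental and 558 cKO cells at day 6. Cells with UMIs of the neural genes Pax6 and Sox2, which are not known as a source of Pomc in the early embryo, held a Pomc UMI in 30.4% of 474 parental cells, at a median of 42119 UMIs and 6.99 CPM. In cKO 1 of 8 such cells held a UMI, at a median of 52804 UMIs and 1.36 CPM. The part of free RNA in such low counts was not tested, no expression is read from them, and the text below turns to cells with at least 10. At day 6, the barcodes that the filter left out gave 8.53 CPM (parental) and 12.02 CPM (cKO), and none of them held more than 7 Pomc UMIs.

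What the Pomc-high cells expressed was read from their summed UMIs against all remaining cells of the same library. Because the cells were picked by Pomc within these libraries, the gene differences are descriptions. A gene counted as higher or lower at 4-fold with at least 20 CPM on the higher side. The parental sum rests on only 5 cells and 236457 UMIs, where 1 UMI equals 4.23 CPM. In parental, 185 of 6660 genes were higher (2.78%) and 206 lower (3.09%). In cKO, 98 of 6205 were higher (1.58%) and 154 lower (2.48%). Both libraries shared 52 higher genes of 5751 (0.904%), which is 28.1% of the parental and 53.1% of the cKO list. They shared 35 lower genes (0.609%), which is 17.0% and 22.7% of the lists.

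Genes of the axial mesoderm, the midline tissue that becomes notochord, were high. Of its 10 listed markers 4 reached 20 CPM in each library. With every Pomc-high cell counted, all 4 were at least 4-fold higher in both. T (Brachyury), the T-box factor of primitive streak and notochord, had 36, 49 and 20 UMIs in 3 of the 5 parental Pomc-high cells and none in the other 2. In cKO it had UMIs in 17 of 19 cells, with a highest count of 41. The summed level of T was 444 against 3.17 CPM in the remaining parental cells, a log2 ratio of 7.13 (6.78 to 7.47), and 289.7 against 13.3 CPM in cKO, a ratio of 4.45 (4.25 to 4.64). Shh, the signal that notochord sends to neural tube and somites, was found in 6 of 19 cKO cells, with 25, 23, 17, 13, 10 and 7 UMIs, at 96.9 against 1.75 CPM. In parental it was found in 1 of 5 cells, with 16 UMIs. The parental Shh value therefore rests on a single cell, and that cell, with 17 Pomc UMIs, lies below a limit of 20. The cartilage and notochord factor Sox9 measured 237 against 17.7 CPM in parental and 127.5 against 19.8 CPM in cKO. Nog, a secreted BMP antagonist, measured 50.8 against 4.65 and 49.98 against 10.8 CPM. Of the parental UMIs, 41 of 56 for Sox9 and 9 of 12 for Nog lay in 1 cell. Leaving out the cell richest in each gene took Nog below 4-fold in both libraries, at log2 ratios of 1.88 and 1.66. T and Sox9 stayed above 4-fold in both. Shh did so in cKO only, because no parental Shh UMI was left. Other markers on the list had few UMIs. Noto had 1 UMI in parental and 0 in cKO Pomc-high cells, and the cilia regulator Foxj1 had 0 in both, where the remaining cells had 0.391 and 0.535 CPM. Foxa2, a forkhead factor of node and floor plate, had 2 and 5 UMIs, at 8.46 against 1.04 CPM in parental and 5.10 against 1.59 CPM in cKO, log2 ratios of 3.02 (−0.05 to 4.92) and 1.68 (0.03 to 2.95). Chrd, a BMP antagonist of the organiser, had 4 and 10 UMIs, with ratios of 3.27 (1.37 to 4.66) and 2.16 (1.07 to 3.07).

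Car3, a carbonic anhydrase that has been described in notochord, was abundant in most Pomc-high cells. The 5 parental cells held 142, 36, 52, 153 and 3 UMIs, and 14 of 19 cKO cells held up to 254. It measured 1632 against 16.4 CPM in parental and 877 against 39.3 CPM in cKO, log2 ratios of 6.63 and 4.48. Rspo3, the same Wnt enhancer that the medium contained, measured 224 against 6.73 CPM and 365 against 23.6 CPM. The transglutaminase gene Tgm2 had ratios of 4.63 and 4.49, the axon guidance gene Ntng1 5.51 and 4.19, and arginase Arg1 3.52 and 3.76. Amph (3.91 and 3.56), which acts in endocytosis, and Samd3 (6.87 and 4.61) and Klhl6 (6.14 and 4.07) completed this group. Without the cell that held most of the gene's UMIs, the parental ratios were 5.30 for Samd3 and 4.13 for Klhl6, and 3.47 for Rspo3, where 40 of 53 UMIs came from 1 cell.

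**Figure D3:**
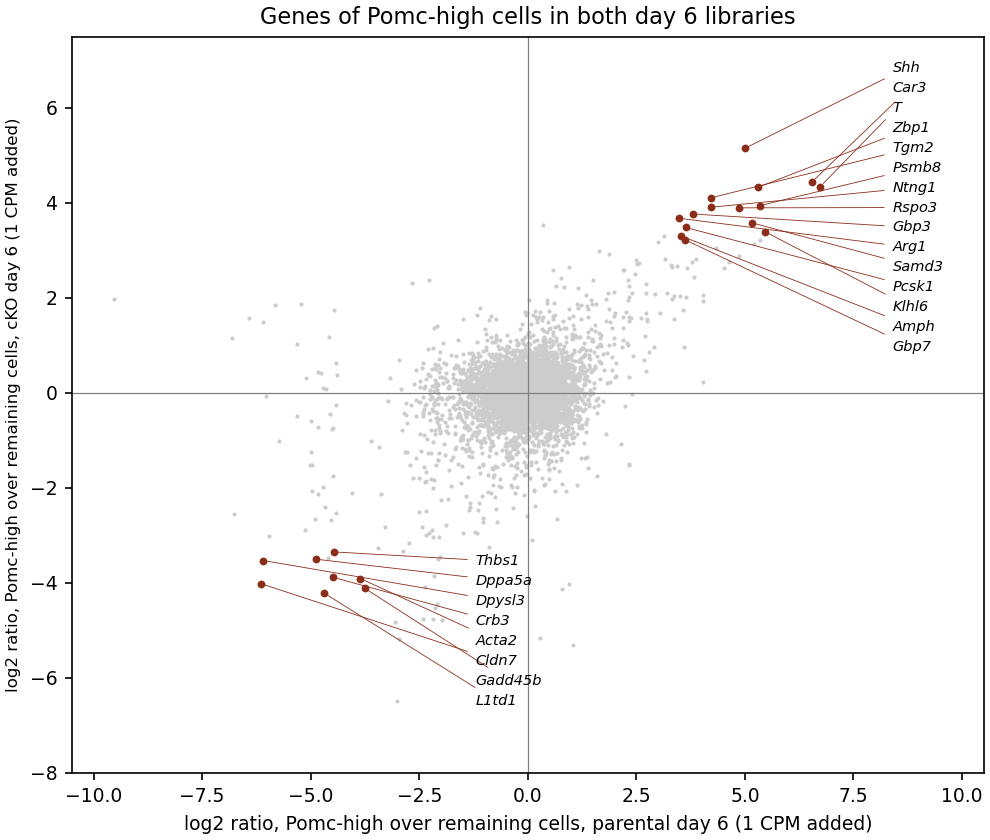
Log2 ratio of Pomc-high over remaining cells in parental (x axis) and in cKO day 6 cells (y axis), with 1 CPM added to both sides, for 5751 genes with at least 20 CPM on the higher side in both libraries. The 15 highest and 8 lowest genes of both libraries by this ratio are dark red and named. Car3, T and Shh lie at the upper right. L1td1 and Thbs1 had 0 UMIs in parental Pomc-high cells and did not pass 4-fold there with the floor of 3 UMIs.

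Genes of the interferon and antigen presentation pathways formed a second group. Psmb8, an inducible subunit of the immunoproteasome, had UMIs in all 5 parental cells (64, 28, 27, 74 and 18) and in all 19 cKO cells (2 to 67). It measured 892 against 21.1 CPM in parental and 381.5 against 23.9 CPM in cKO, log2 ratios of 5.41 and 4.00. The nucleic acid sensor Zbp1 (6.01 and 4.88) and the guanylate-binding proteins Gbp3 (4.41 and 4.47) and Gbp7 (3.84 and 3.48) were also among the 15 highest. A list of 35 such genes was drawn up after these values were seen, so it describes the pattern and does not support it. Of its members that reached 20 CPM, 17 of 24 were at least 4-fold higher in parental and 11 of 20 in cKO, and 0 were lower in either. Median log2 ratios were 3.13 and 2.74, against 0.06 and 0.04 over all genes. Of the genes of the interferons themselves, Ifng and Ifnb1 had 0 UMIs in the kept cells of both libraries. Other interferon genes are not given here. Of the class I antigens, H2-K1 measured 296 against 102 CPM in parental and 251 against 137 CPM in cKO, below the 4-fold limit in both.

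The machinery that makes hormone out of pro-opiomelanocortin was present only in part. Pcsk1, the convertase that yields ACTH, measured 29.6 against 1.46 CPM in parental and 24.5 against 1.28 CPM in cKO, log2 ratios of 4.34 (2.99 to 5.43) and 4.26 (3.54 to 4.93). It was found in 2 of 5 parental cells, with 6 and 1 UMIs, and in 6 of 19 cKO cells, with at most 6. Over whole libraries Pcsk1 lay between 1.19 and 1.80 CPM in all 6. Pcsk2 had 0 UMIs in Pomc-high cells of either library. Cpe, which trims the cut peptides, measured 8.46 against 30.01 CPM and 14.3 against 37.8 CPM, log2 ratios of −1.83 (−4.87 to 0.03) and −1.40 (−2.28 to −0.65). The lysosomal protease Ctsl, which has also been linked to prohormone cleavage, measured 682 against 644 CPM in cKO and 770 against 437 CPM in parental, a parental log2 ratio of 0.82 (0.60 to 1.03). Of the 9 processing genes listed, 4 reached 20 CPM in each library, and Pcsk1 alone passed the 4-fold limit in both. The 7 listed genes of secretory granules summed to 8.46 CPM in parental and 4.08 CPM in cKO Pomc-high cells, against 23.1 and 3.82 CPM in the remaining cells.

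Most reported genes of the known Pomc-producing cell types had no UMI in Pomc-high cells. Tbx19 had 0 UMIs in all kept cells of day 6 in both libraries, and Pitx1 had 0 in Pomc-high cells. Of the 14 pituitary genes reported, 14 had 0 UMIs in the parental and 13 in the cKO Pomc-high cells. In cKO they summed to 1.02 CPM against 1.31 CPM in the remaining cells. In the remaining parental cells they summed to 5.055 CPM, while 1 UMI in the parental Pomc-high cells equals 4.23 CPM. Of 12 genes of hypothalamic Pomc neurons 10 had 0 UMIs in each library. The share of all genes at 0 UMIs in these cells was not counted, so these counts are not read as a trait of the lists. Of 18 genes reported to regulate Pomc, 4 in parental and 3 in cKO reached 20 CPM and 0 passed the 4-fold limit in either direction. Among them Stat3, which carries the signal of leukaemia inhibitory factor, measured 50.8 against 27.1 and 39.8 against 25.7 CPM. Melanocortin and opioid receptors with their accessory genes summed to 4.23 and 2.04 CPM in Pomc-high cells. The other peptide precursors listed summed to 4.23 CPM in parental and 34.7 CPM in cKO, and 18.4 CPM of the latter came from the opioid precursor Penk, seen in 4 of 19 cells.

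Surface ectoderm genes were mostly lower in cKO Pomc-high cells, neural genes were mostly lower in parental ones, and pluripotency genes were mixed. Of 6 surface ectoderm genes that reached 20 CPM in cKO, 4 were at least 4-fold lower in Pomc-high cells. The simple keratin Krt18 measured 333 against 2204 CPM there (log2 ratio −2.73), Krt7 30.6 against 248.6 CPM, and the adhesion genes Epcam and Cdh1 62.2 against 482 and 12.2 against 97.1 CPM. In parental, 2 of 6 passed the limit, and Krt8 went the other way, at 968.5 against 745 CPM (log2 ratio 0.38; 0.19 to 0.57), whereas in cKO it measured 493 against 1881 CPM. Of 10 neural genes measured in parental, 7 were lower. Crabp1, a retinoic acid binding protein, and Sox2 had 0 UMIs in parental Pomc-high cells against 741 and 111.5 CPM in the rest, which is at least 58.4-fold and 8.79-fold lower (floor of 3 UMIs over the group). In cKO, where the remaining cells were low in these genes, Crabp1 measured 96.9 against 23.7 CPM and Sox2 25.5 against 10.9 CPM. Both rest on 1 cell each, with 84 of 95 Crabp1 and 24 of 25 Sox2 UMIs, and without that cell the levels were 13.3 and 1.21 CPM, below the remaining cells. Of 5 listed pluripotency genes that reached 20 CPM in parental, 2 were at least 4-fold lower, and in cKO 1 of 2 was. Sall4 measured 67.7 against 41.9 CPM in parental and 23.5 against 30.9 CPM in cKO, and both intervals of the ratio held 0. L1td1, a pluripotency gene outside that list, and Dppa5a measured 2.04 against 55.2 CPM and 4.08 against 56.6 CPM in cKO. In parental Pomc-high cells they measured 0 and 4.23 CPM. With the floor of 3 UMIs, parental L1td1 was at least 1.97-fold lower than the 25.0 CPM of the rest, short of the 4-fold limit. Acta2, smooth muscle actin, measured 59.2 against 868 CPM in parental and 18.4 against 290 CPM in cKO. The stress gene Gadd45b measured 4.23 against 69.8 and 13.3 against 245 CPM. The cell junction genes Cldn7 and Crb3, the neuronal Dpysl3 and the matrix gene Thbs1 had 0 UMIs in parental Pomc-high cells and between 2.04 and 11.2 CPM in cKO, against 29.95 to 197 CPM in the remaining cKO cells. Blood and endothelial markers had 0 UMIs in parental Pomc-high cells, against 233 and 11.1 CPM in the rest. In cKO they summed to 2.04 against 0.297 CPM and 9.18 against 4.31 CPM. The endoderm list had 9 of 12 genes at 0 in parental and 5 of 12 in cKO, and it summed to 33.8 against 35.6 CPM and to 31.6 against 24.5 CPM. The share of all genes at 0 was not counted here either.

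**Figure D4:**
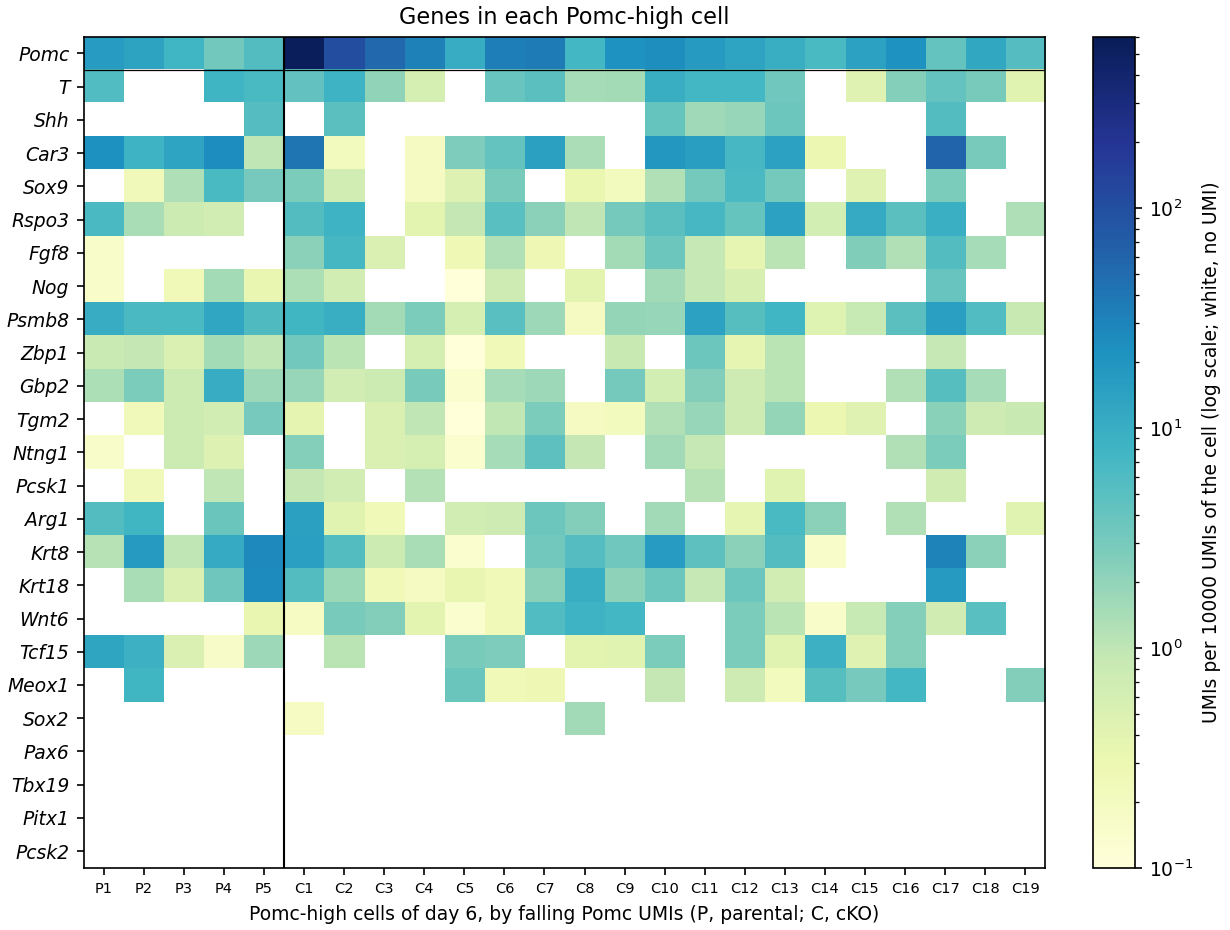
UMIs of 25 genes (rows) per 10000 UMIs of the cell (colour, log scale; white is no UMI) in the 24 Pomc-high cells of day 6 (columns; P parental, C cKO, by falling Pomc count). Most columns hold T, Car3 and Psmb8; P2, C5 and C14 hold Tcf15 and Meox1 without T; the rows of Pax6, Tbx19, Pitx1 and Pcsk2 are white.

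The Pomc-high cells were not of 1 kind. The cKO cell with 3001 Pomc UMIs held 23 T, 231 Car3 and 41 Psmb8 UMIs and 0 Shh UMIs. The cell with 470 held 39 T, 23 Shh, 33 Fgf8 and 1 Car3 UMIs. Some cells held genes of somites, the segmented mesoderm beside the notochord, and among these were cells with and without T. The cKO cell with 153 Pomc UMIs held 45 UMIs of Tcf15, 57 of Meox1 and 0 of T, and the cell with 44 held 58, 34 and 0. In parental the cell with 58 held 38 Tcf15, 33 Meox1 and 0 T UMIs, along with 36 Car3 and 28 Psmb8 UMIs. The parental cell with 104 Pomc UMIs held 79 Tcf15 UMIs together with 36 T and 0 Meox1 UMIs, and the cKO cells with 141 and 72 held 11 and 15 Tcf15 with 16 and 41 T UMIs. Summed over Pomc-high cells, Tcf15 measured 529 against 78.2 CPM in parental, where 79 of 125 UMIs came from that 1 cell, and 159 against 54.8 CPM in cKO. Dll3, a Notch ligand of the presomitic mesoderm, measured 279 against 23.7 and 38.8 against 8.66 CPM, and 57 of the 66 parental UMIs were in 1 cell, without which the level was 51.7 CPM. The streak genes Fgf8 and Sp5 differed between the libraries. Fgf8 measured 4.23 against 7.53 CPM in parental and 123 against 13.7 CPM in cKO, whereas Sp5 measured 97.3 against 12.2 and 105 against 53.5 CPM. The mesenchyme genes Prrx1 and Twist1 measured 34.7 against 5.26 CPM and 144 against 39.3 CPM in cKO, with Tagln at 231.5 against 695.5 CPM.

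Depth and mitochondrial share of the Pomc-high cells differed from those of other cells. Their median depth was 43108 UMIs in parental and 44273 in cKO, against 36183 and 30673 in the remaining cells. Mitochondrial UMIs made up a median of 5.04% and 4.55%, against 3.25% and 3.56%, and 3 of 5 and 8 of 19 cells lay above 5%, against 15.1% and 26.0% of the rest. In cKO 4 cells lay under 1%, and the range was 0.255% to 9.36%. Under a stricter filter (at least 2000 genes, no more than 5% mitochondrial UMIs), the top cKO cell was left out and 2 parental and 11 cKO Pomc-high cells remained. The log2 ratio of the genotypes was then 2.17. Of the 19 cKO cells 2 held over 100000 UMIs, against 9.63% of the rest. Those cells, with 153 and 114 Pomc UMIs, held somite genes in the first case, and 24 Sox2 and 43 Epcam beside 22 T UMIs in the second. Scrublet marked 0 Pomc-high cells as doublets, but it marked only 2 parental and 1 cKO cell at day 6, too few to count as a working filter, and the part of doublets was not tested. There were 9 barcodes shared between libraries over 15 pairs, and 0 of them belonged to Pomc-high cells.

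The relation was also read the other way, from cells picked by other genes than Pomc. T and Shh were themselves among the genes highest in Pomc-high cells of these same libraries. A high Pomc level in cells picked by them was therefore partly fixed by that choice. It describes the overlap and is no separate check. Cells with at least 1 UMI of T and 1 of Shh numbered 7 in parental and 17 in cKO. Pomc measured 88.1 CPM (54.5 to 134.6) in these parental cells and 968 CPM (901 to 1038) in these cKO cells, against 8.56 and 65.9 CPM in all others. They included 1 and 6 Pomc-high cells, while 4 of 7 and 7 of 17 had no Pomc UMI. The cell with 3001 UMIs was not among them. Of their 21 parental Pomc UMIs 17 came from 1 cell, and of their 772 cKO UMIs 470 came from 1 cell; without these cells the levels were 19.2 and 402 CPM. Choosing T and Foxa2 instead gave 8 and 16 cells with 121 and 263 CPM. At least 5 T UMIs were found in 14 parental and 56 cKO cells, with 198 and 1689 CPM of Pomc. Without the cell with the most Pomc UMIs these values were 59.0 and 579 CPM. In both libraries many T cells were without Pomc: 10 of the 14 and 29 of the 56 had no Pomc UMI. By contrast, cells with at least 5 UMIs each of Tcf15 and Meox1 measured 11.9 CPM (131 parental cells) and 36.7 CPM (95 cKO cells). All others measured 8.16 and 80.8 CPM. In these Tcf15 and Meox1 cells too, 58 of 148 parental and 153 of 246 cKO Pomc UMIs came from 1 cell. Their levels without it are not given. Cells with at least 50 UMIs each of Krt8 and Krt18 measured 4.62 and 6.40 CPM at median depths of 68558 and 69219 UMIs.

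Among cells with at least 5 T UMIs, those with and without Pomc were set side by side. In cKO, 12 Pomc-high cells were compared with 41 that held fewer than 3 Pomc UMIs. Of 6168 genes, 29 passed 4-fold upwards (0.47%) and 25 downwards (0.405%). Several genes that marked Pomc-high cells against the whole culture were close to level here: in cKO, T measured 424 and 393 CPM, Car3 1262 and 1112 CPM, Psmb8 515 and 502 CPM, Rspo3 475 and 431 CPM, and Arg1 272 and 276.5 CPM. Pcsk1 stood apart, at 27.9 against 3.69 CPM (18 and 7 UMIs), a log2 ratio of 2.92 (1.60 to 4.42). Shh measured 147 against 51.6 CPM, a ratio of 1.51 (1.09 to 1.94), and Tgm2 88.5 against 41.6 CPM, a ratio of 1.09 (0.57 to 1.60). In parental the same comparison held 3 against 11 cells, and of 6433 genes 190 passed 4-fold upwards (2.95%) and 165 downwards (2.56%). There the marking genes were not all level. T measured 686 against 289 CPM, a log2 ratio of 1.24 (0.88 to 1.61), and Car3 1946 against 998 CPM, a ratio of 0.96 (0.76 to 1.17), while Psmb8, at 1019 against 938.5 CPM, had an interval of the ratio that held 0. Fgf8 had 1 UMI against 208, at 6.53 against 365 CPM, a ratio of −5.80 (−11.1 to −3.31); in cKO it measured 168 against 183 CPM. Pcsk1 had a parental log2 ratio of 0.48 (−1.16 to 1.91) on 6 UMIs in the Pomc-high cells, and this interval overlaps that of cKO. The parental ratio of Shh was 0.06 (−0.84 to 0.88), on 16 UMIs in 1 cell. That interval leaves out the spread between cells, so no difference from the cKO ratio is read from it. Klhl6, at 176 against 14.03 CPM, and Samd3, at 78.4 against 22.8 CPM, were higher in parental, with log2 ratios of 3.65 and 1.78, and 22 of the 27 Klhl6 and 9 of the 12 Samd3 UMIs came from 1 cell. In cKO they measured 34.1 against 34.2 CPM and 32.6 against 22.6 CPM, with intervals of the ratio that held 0.

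Clustering of the day 6 cells of both libraries, with Pomc left out of the genes used, placed 20 of the 24 Pomc-high cells (83.3%) in 1 of 18 clusters. Its leading genes were Car3, T, Shh, Psmb8, Sprr2a3, Rspo3, Zbp1 and Fgf8, and it held 25 parental and 75 cKO cells. All 5 parental and 15 cKO Pomc-high cells lay there. Pomc measured 254 CPM (223 to 288) in its parental and 1965 CPM (1909 to 2023) in its cKO cells. With Pomc-high cells removed the values were 9.99 and 19.2 CPM. Of the 100 cells 58 had no Pomc UMI. The remaining 4 Pomc-high cells were cKO cells, 3 in a cluster led by Fst, Ptgds and Tcf15 and 1 in a cluster led by Cxcl14 and Dkk2. In clusters with at least 20 cells, Pomc outside Pomc-high cells ran from 0 to 11.99 CPM in parental and from 2.98 to 20.2 CPM in cKO. The upper ends belong to a small cluster led by Gpnmb, with 3 and 9 Pomc UMIs. At Leiden resolutions of 0.5 and 1.2 the cluster holding most Pomc-high cells had the same 100 cells in number and the same count of 20.

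**Figure D5:**
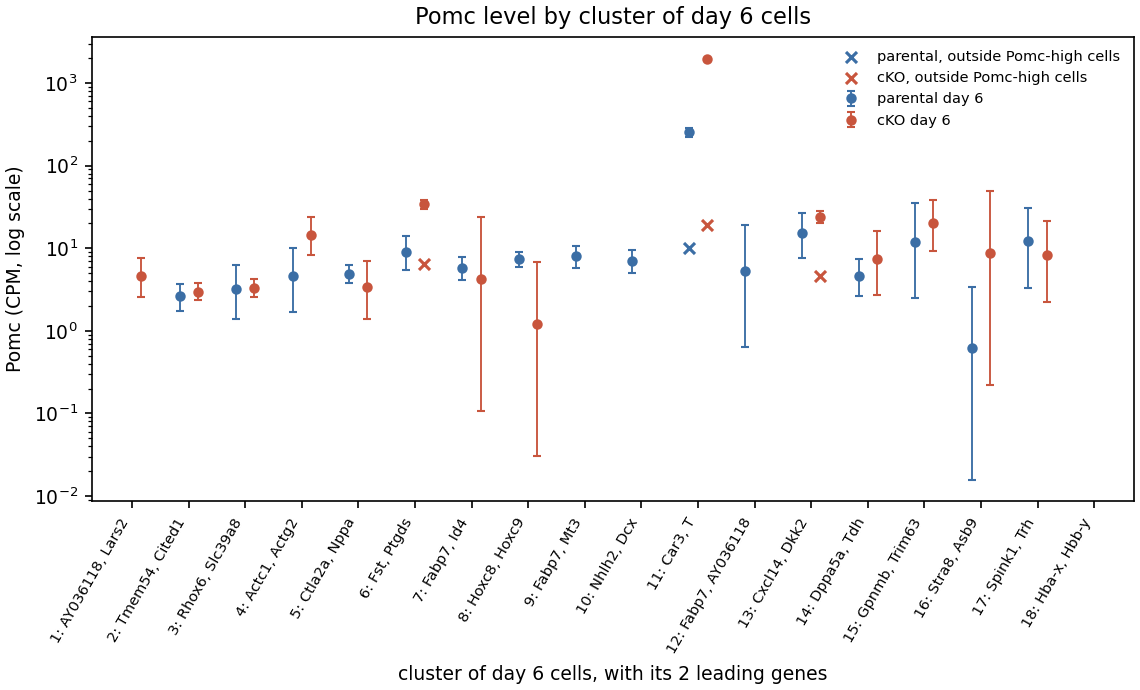
Pomc level (CPM, log scale, y axis) in the clusters of day 6 cells (x axis, numbered by falling size, with their leading genes); points are the parental (blue) and cKO (red) cells of a cluster with exact Poisson 95% intervals, crosses are the level without Pomc-high cells, and clusters at 0 are not drawn. Cluster 11 stands above the others at 254 and 1965 CPM, and its crosses lie at 9.99 and 19.2 CPM.

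Across 1092 cKO day 6 cells thinned to 10000 UMIs, the genes whose counts ran most alike with Pomc, of 12153 compared, were Psmb8 (Spearman rho 0.27), T (0.27), Shh (0.26), Car3 (0.25), Rspo3 (0.24), Gsc (0.22), Zbp1 (0.22), Tgm2 (0.21), Gbp3 (0.21) and Defa30 (0.21). These cells share 1 library and the counts are sparse, so the values are weak and only give an order. In parental cells the same genes ran from −0.02 to 0.12. The organiser factor Gsc had 46 UMIs in 7 of the 19 cKO Pomc-high cells and 0 in the 5 parental ones. Of the protein-coding genes within 200000 bases of Pomc, Dnmt3a was higher in the cKO Pomc-high cells, at 69.4 against 30.1 CPM (log2 ratio 1.21; 0.84 to 1.55), and measured 38.1 against 36.8 CPM in the parental ones. Efr3b had 6 UMIs in 2 cKO cells (6.12 against 0.520 CPM), and Dtnb, Dnajc27 and Adcy3 had between 2 and 10 UMIs there, with intervals of the ratio that held 0.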

How the data were processed

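The 6 groups of mouse ESC and differentiated cells were profiled with the 10x Genomics 5′ kit. The deposited values are UMI counts per gene and barcode; the authors used Cell Ranger 3.1.0, per the file headers, and mm10, per the submitters' processing notes. Further filters are not given in the sources used here. Matrices were read in Python 3.11.15 (numpy 2.4.6, pandas 2.3.3, scipy 1.17.1, statsmodels 0.14.6). Barcodes were kept from 1000 genes upwards and up to 10% mitochondrial UMIs. UMIs were summed over cells and given as CPM with exact Poisson intervals, ratios with exact conditional binomial intervals, shares with Clopper-Pearson intervals and their difference with a Newcombe interval. With 1 library per group there was no test. Where a gene had no UMI in a group, 3 UMIs stood in as the floor. The comparison was run on simulated counts with counting error only and no spread between cells. That check does not cover genes for which 1 cell holds most UMIs. Clusters came from the 2 day 6 libraries together (scanpy 1.11.5, scikit-learn 1.9.0, igraph 0.11.9; 2000 variable genes, 30 components, 15 neighbours, Leiden resolution 0.8). Alternatives used edgeR 4.0.16 for TMM factors. Genes named were Pomc; the 15 highest and 8 lowest by log2 ratio (1 CPM added) in both libraries; up to 4 per list at 20 CPM or more, plus defining members at 0; the 10 with the highest correlation; and neighbours within 200000 bases. Other genes (the interferon and antigen presentation list; Foxa2 and Fgf8 among T cells; Gsc in single cells; Chrd; Krt8; Penk; Actc1; the leading genes of clusters) were chosen after their values were seen. Pomc and all lists were chosen with earlier results of these data known. One gene was taken out of the pituitary and regulator lists after its values were seen and is not reported here.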

Additional observations from a re-analysis of the deposited data

How the results depend on the processing

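The log2 ratio of cKO over parental at day 6, 3.11, was 2.90 with equal weight per cell, 2.17 with a stricter cell filter (at least 2000 genes, no more than 5% mitochondrial UMIs), 1.88 without the cKO cell with the most Pomc UMIs and 2.15 without the top cell of each library. These last 2, and all settings that leave out a top cell or cells over 100000 UMIs, were chosen after seeing the data. The share of Pomc UMIs in Pomc-high cells was 26.5% in parental and 90.6% in cKO at a limit of 50 UMIs, 93.0% in cKO at 20, 13.2% and 84.6% with the stricter cell filter, and 25.0% and 86.4% without the top cell. Genes higher and lower in both libraries numbered 24 and 20 at a minimum of 50 CPM, all of them within the 52 and 35. The lower genes numbered 7 with the stricter filter, 3 of them shared, and 18 without the top cells, 16 of them shared. Pomc in cKO cells with T and Foxa2, in place of T and Shh, was 263 CPM. Without the T and Shh cell with the most Pomc UMIs the parental value was 19.2 CPM and the cKO value 402 CPM. The other 61 of 79 alternatives stayed within the interval, or within 1.5 times the count, of the value reported. For the 23 highest and lowest genes, 360 of 368 values kept their direction. The other 8 had no UMI in the parental Pomc-high cells used: Shh at a limit of 20, and Gbp3, Pcsk1, Arg1, Klhl6, L1td1, Crb3 and Thbs1 with the stricter filter. L1td1, Cldn7, Crb3, Dpysl3 and Thbs1 had 0 UMIs in parental Pomc-high cells, and their parental values could not be counted as reversed. The 360 was therefore partly fixed by the method. Leaving out the Pomc-high cell with the most UMIs of a gene, also chosen after seeing the data, kept the direction of 52 of 59 named values that lay above the remaining cells. It turned the log2 ratios of Meox1 (−2.12) and Twist1 (−0.0059) in parental and Crabp1 (−0.84) and Sox2 (−3.17) in cKO; parental Prcp (−0.12) and Smarca4 (−0.24) also fell below 0, and parental Shh had no UMI left. Median-of-ratios scaling shifted day 3 ratios by 0.11. No paired analysis was possible because each group held 1 library. The parental Pomc-high set of 5 cells limits every gene value read from it.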
